A study of Drosophila melanogaster with 8 samples.

Results

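The Tweedle genes of Drosophila melanogaster encode secreted structural proteins of the insect cuticle. They were taken from the deposited table by name: every gene whose symbol starts with Twdl, and Tb (Tubby), which is the fly's TwdlA gene. This gave 26 of 17321 genes. A further annotated family member, the pseudogene TwdlU, was not analysed here. RNA of whole embryos of stages 14 and 15 was sequenced from esc mutants and from control embryos of the wild-type strain OrgR (Oregon R). The mutants lacked both the maternal and the zygotic function of esc, which encodes a subunit of the histone methyltransferase complex PRC2. Every sample is labelled as a pool of at least 200 embryos, and no other allele or agent is named. Both genotypes have 4 libraries with the titles 1-1, 1-2, 2-1 and 2-2, and the first number is called the set here.

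Cuticle is the layered coat of chitin and protein that epidermal cells secrete on their apical side, and that also lines the trachea, foregut and hindgut. In the fly embryo the protein-rich larval cuticle is laid down mainly after the stages collected here. Tweedle proteins form one of several cuticle protein families, next to the larger Cpr family with its chitin-binding consensus. Dominant mutations of Tb and of TwdlD make larvae and pupae short and stout, and this body shape is the best known sign of the family's part in the mechanics of the cuticle.

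The level of esc checked the labels. It was 3.59, 3.56, 4.40 and 3.66 RPKM in esc libraries, against 10.7, 12.4, 11.9 and 11.7 RPKM in OrgR libraries (titles 1-1, 1-2, 2-1, 2-2). RPKM is the number of reads scaled by gene length and by library size, so it can be compared between genes. A value of 0.001 RPKM, the lowest listed, is a floor that stands for no measurable signal. Relative depth, read from the steps of low values, lay between 84.4% and 100% of the deepest library. Markers of epidermis, trachea, hindgut, muscle and nervous system were all above 1 RPKM in both genotypes, while the hemocyte marker Hml was under 0.2 RPKM in every library. In such bulk samples, fewer cells of a type and less RNA per cell cannot be told apart. The age of the pools within the collected stages also cannot be told apart from genotype.

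Of the 26 Tweedle genes, 25 had all 4 esc libraries above all 4 OrgR libraries. Testing required an average over all 8 libraries of 0.5 RPKM or more, and 23 members met this. All 23 rose in esc by limma on log2(RPKM + 1) with set means as samples, at adjusted p-values between 0.000107 and 0.0112, and none fell. Of all 10547 tested genes, 20.9% rose, 31.6% fell, and 26.2% had every esc library above every OrgR library. Rises were 39.9% of all changed genes as deposited and 74.4% under median-of-ratios scaling, which moved the median over all tested genes to a log2 change of 0.04, against -0.18, and left the 23 Tweedle rises in place. The median log2 change was 5.36 for the 23 tested Tweedle genes and -0.18 for all tested genes. Of the 23, 12 had an OrgR mean of at least 0.5 RPKM, and 11 met the filter through their level in esc alone, so that these 11 could hardly have been tested without differing. The 12 would have met the filter with a level in esc equal to that in OrgR, and all rose. Of these, 8 had an OrgR mean over 1 RPKM and would have been tested at any level in esc.

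The family was close to silent in OrgR embryos and abundant in esc embryos. The 26 genes summed to 4849, 4818, 9355 and 8746 RPKM in esc libraries, against 41.6, 38.4, 38.8 and 37.8 RPKM in OrgR libraries. As a share of all RPKM this was 0.577% ± 0.23 in esc and 0.00347% in OrgR (mean ± SD of 2 set means in esc; the OrgR set means were almost equal). In OrgR, 18 members averaged under 1 RPKM, 8 of them under 0.1 RPKM, and 6 members stood at the floor in at least 1 library. In esc, 11 members averaged over 100 RPKM, 12 between 1 and 100 RPKM and 3 under 1 RPKM.

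**Figure D1:**
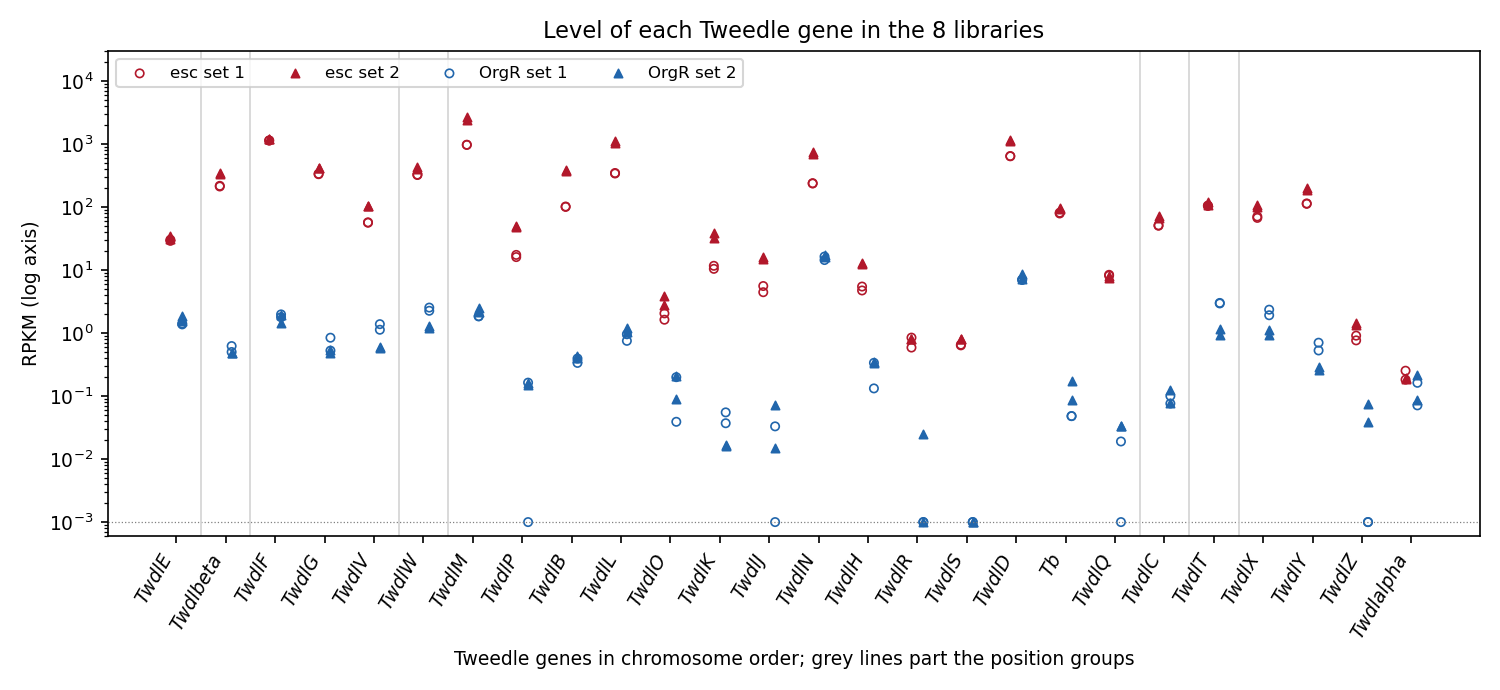
RPKM (log axis) of the 26 Tweedle genes in the 8 libraries, with genes in chromosome order, esc in red and OrgR in blue, open circles for set 1 and filled triangles for set 2, and a dotted line at the floor of 0.001 RPKM. In 25 genes every esc point lies above every OrgR point, and in Twdlalpha the genotypes overlap.

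The most abundant Tweedle transcripts of esc embryos were TwdlM, TwdlF, TwdlD, TwdlL and TwdlN. TwdlM had 969, 962, 2684 and 2401 RPKM in esc libraries, against 1.84, 1.84, 2.18 and 2.45 RPKM in OrgR libraries. Its mean of 1754 ± 1115 RPKM in esc was 845 times the 2.08 ± 0.33 RPKM of OrgR (SD, n = 2 sets each), and among all genes it ranked 116 by level in esc and 8603 in OrgR. The log2 change was 9.0 ± 0.47 (SE, adjusted p = 0.00126). It was the third largest of all tested genes, and the esc sets differed widely.

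TwdlF reached a similar level without that spread. It had 1132, 1128, 1196 and 1176 RPKM in esc libraries, against 1.97, 1.78, 1.43 and 1.95 RPKM in OrgR libraries. All 4 esc values lay close together, at 650 times the OrgR mean, and the log2 change was 8.71 ± 0.09 (SE, adjusted p = 0.000107), with the smallest SE and p of the family.

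TwdlL showed the same order of change as TwdlM, with 345, 339, 1121 and 1044 RPKM in esc libraries, against 0.750, 0.954, 1.19 and 1.04 RPKM in OrgR libraries. The set 2 mean in esc was 3.17 times that of set 1. The log2 change was 8.27 ± 0.56 (SE, adjusted p = 0.00195) and the ratio of means 726. TwdlM, TwdlF and TwdlL were 3 of only 13 genes with a rise of 8 or more on the log2 scale (0.123% of tested genes), and 14 of the 23 had one of 5 or more, against 1.13% of all tested genes.

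TwdlN and TwdlD stood apart in OrgR, where they were the only members above 3 RPKM. TwdlN had 235, 238, 745 and 693 RPKM in esc libraries, against 16.3, 14.4, 17.5 and 16.3 RPKM in OrgR libraries. TwdlD, whose mutation alters body shape, had 641, 635, 1153 and 1119 RPKM in esc libraries, against 6.94, 7.01, 8.47 and 7.30 RPKM in OrgR libraries. Together they made up 19.3% of the family sum in esc and 60.2% in OrgR. TwdlN rose 29.7-fold, one of the lowest ratios of the 15 members for which a fold is given (log2 change 4.6 ± 0.54, adjusted p = 0.00572), and TwdlD rose 119-fold (6.66 ± 0.29, adjusted p = 0.000814).

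Tb, the Tubby gene, went with the family but was less abundant. It had 80.8, 78.6, 94.9 and 93.2 RPKM in esc libraries, against 0.048, 0.048, 0.175 and 0.085 RPKM in OrgR libraries. The esc libraries agreed closely, and in OrgR the gene was near the lower end of what the table resolves (log2 change 6.33 ± 0.13, SE, adjusted p = 0.000247). No fold is given for Tb or the other members with an OrgR library under 0.1 RPKM, since so low a denominator is poorly measured.

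TwdlG, TwdlW, Twdlbeta and TwdlB came next, each above 200 RPKM on average in esc. TwdlG averaged 371 ± 54 RPKM in esc and 0.593 ± 0.13 RPKM in OrgR, and Twdlbeta 276 ± 89 RPKM in esc and 0.520 ± 0.056 RPKM in OrgR (SD, n = 2 sets each). Their ratios of means were 625 and 532 and their log2 changes 7.86 ± 0.14 and 7.47 ± 0.24 (adjusted p = 0.000241 and 0.00051). TwdlW averaged 370 ± 67 RPKM in esc and 1.82 ± 0.81 RPKM in OrgR, with a ratio of means of 204 (log2 change 7.06 ± 0.25, adjusted p = 0.000522). TwdlB had 101, 99.998, 392 and 368 RPKM in esc libraries, against 0.393, 0.335, 0.432 and 0.404 RPKM in OrgR libraries. With a log2 change of 7.14 ± 0.64 (SE, adjusted p = 0.00345), it had the widest error of the family.

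**Figure D2:**
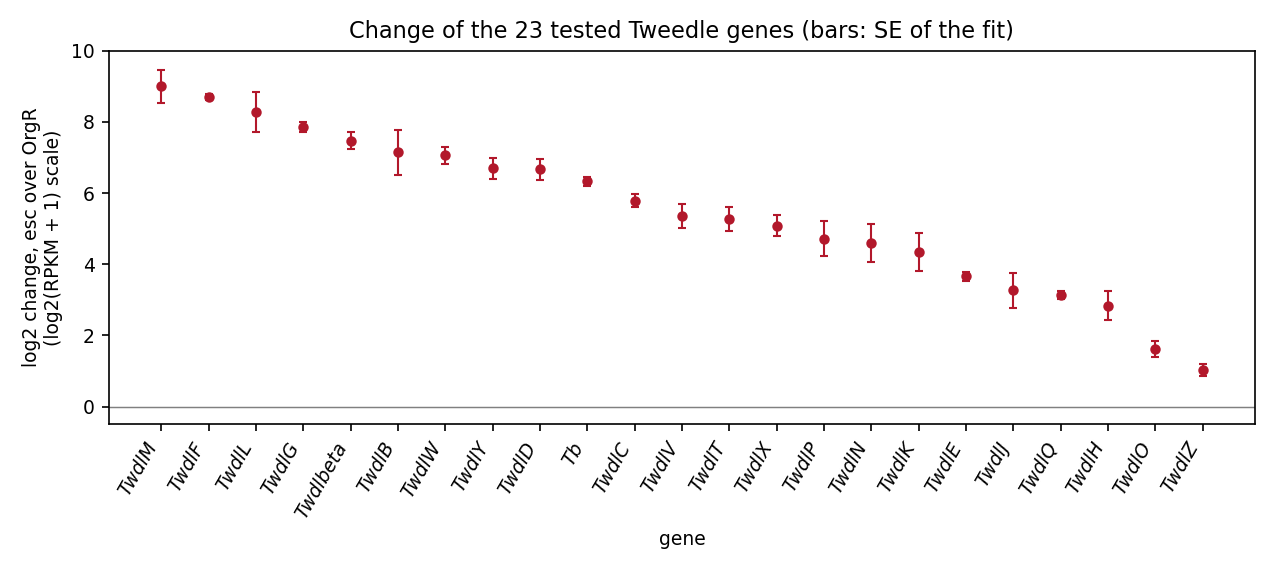
Log2 change of esc over OrgR on the log2(RPKM + 1) scale for the 23 tested Tweedle genes, sorted from the largest (TwdlM, 9.0) to the smallest (TwdlZ, 1.03). Points are the estimates of the fit over 2 set means per genotype and bars their standard errors, and all points lie above 0.

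TwdlY, TwdlT, TwdlX and TwdlV were in the middle of the range. Their means in esc were 153, 110, 86.0 and 79.9 RPKM, and those in OrgR 0.443, 2.01, 1.57 and 0.921 RPKM, in this order. The ratios of means were 346, 54.6, 54.6 and 86.8, and the log2 changes 6.70, 5.28, 5.09 and 5.36. TwdlC, with 50.3, 51.1, 71.9 and 66.8 RPKM in esc libraries against 0.1, 0.076, 0.126 and 0.078 RPKM in OrgR libraries, rose by 5.78 ± 0.18 on the log2 scale (SE, adjusted p = 0.000504).

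The value of TwdlE is uncertain. Of its exonic bases, 71.9% lie within exons of lectin-28C on the other strand, and the libraries did not keep strand. TwdlE averaged 31.3 ± 2.5 RPKM in esc and 1.54 ± 0.21 RPKM in OrgR (20.3-fold, log2 change 3.67 ± 0.13, adjusted p = 0.000522). lectin-28C, a lectin gene, averaged 3.38 ± 0.55 RPKM in esc and 1.40 ± 0.18 RPKM in OrgR (SD, n = 2 sets each; 0.87 ± 0.14, adjusted p = 0.0117). The only other overlap of exons in the family was 5.32% of those of Twdlalpha. How similar the Tweedle sequences are to each other was not examined, so reads shared between close copies remain possible.

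Members of low level in esc rose too, but the 5 given next met the filter for testing through esc alone. TwdlP, TwdlK, TwdlJ, TwdlH and TwdlQ averaged 32.5, 23.4, 10.3, 8.91 and 7.99 RPKM in esc and 0.119, 0.0313, 0.0305, 0.285 and 0.0218 RPKM in OrgR. TwdlQ, for example, had 8.14, 8.37, 7.33 and 8.14 RPKM in esc libraries, against the floor, 0.019, 0.034 and 0.033 RPKM in OrgR libraries. TwdlH had 5.45, 4.72, 12.8 and 12.6 RPKM in esc libraries, against 0.336, 0.132, 0.342 and 0.331 RPKM in OrgR libraries. The log2 changes of these 5 lay between 2.83 (TwdlH) and 4.72 (TwdlP), on a scale that understates the change of genes with so little signal in OrgR.

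The smallest tested rises were those of TwdlO and TwdlZ. TwdlO had 2.04, 1.62, 3.81 and 2.79 RPKM in esc libraries, against 0.039, 0.199, 0.090 and 0.209 RPKM in OrgR libraries (log2 change 1.62 ± 0.22, SE, adjusted p = 0.00809). TwdlZ had 0.907, 0.763, 1.34 and 1.46 RPKM in esc libraries, against the floor in both OrgR set 1 libraries and 0.039 and 0.076 RPKM in OrgR set 2. Its log2 change of 1.03 ± 0.17 (SE, adjusted p = 0.0112) lost the call without OrgR set 1 (adjusted p = 0.0526) and without OrgR set 2 (adjusted p = 0.0512).

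The 3 members under the filter were TwdlR, TwdlS and Twdlalpha. TwdlR had 0.587, 0.844, 0.798 and 0.814 RPKM in esc libraries, against the floor in 3 OrgR libraries and 0.025 RPKM in OrgR 2-2. TwdlS had 0.636, 0.652, 0.817 and 0.813 RPKM in esc libraries and was listed at the floor in all 4 OrgR libraries. Both were higher in every esc library, yet far below TwdlM, which lies in the same position group. Twdlalpha was the exception of the family, with 0.182, 0.252, 0.188 and 0.192 RPKM in esc libraries, against 0.162, 0.071, 0.085 and 0.216 RPKM in OrgR libraries. With no filter on low values, TwdlR and TwdlS passed (adjusted p = 0.00354 and 0.00528), and Twdlalpha did not (log2 change 0.09 ± 0.03, adjusted p = 0.105).

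The genes fell into 8 position groups when neighbours under 50 kb apart were joined, and members rose in each. All positions are those of the Ensembl annotation in dm6 coordinates, 1-based. The largest group lies on 3R from 26619118 to 26693590 and runs from TwdlM through TwdlP, TwdlB, TwdlL, TwdlO, TwdlK, TwdlJ, TwdlN, TwdlH, TwdlR, TwdlS, TwdlD and Tb to TwdlQ. Its 14 genes made up 58.5% of the family sum in esc and 70.9% in OrgR. All 12 tested rose, by 1.62 to 9.0 on the log2 scale, against 20.9% of all tested genes. Of the 12, only TwdlM, TwdlL, TwdlN and TwdlD had an OrgR mean of at least 0.5 RPKM, and the others met the filter through esc alone. The second group, TwdlF, TwdlG and TwdlV, lies on 3R from 4247020 to 4255833 and made up 25.1% of the sum in esc and 8.39% in OrgR. The third, TwdlX, TwdlY, TwdlZ and Twdlalpha, lies on X from 16731091 to 16744365. TwdlW (3R, 17141208 to 17142404), TwdlC (3R, 26994832 to 26996442), TwdlT (3R, 27049220 to 27051004), TwdlE (2L, 7857957 to 7860839) and Twdlbeta (2R, 11862537 to 11863252) stand alone.

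Members are small genes of similar build. Their longest annotated proteins have 197 (TwdlE) to 388 residues (Twdlalpha), with a median of 276, and 24 of 26 have a single annotated transcript. In 12 genes that transcript has 2 exons and in 8 it is a single exon. Both strands are used, with 16 genes on the plus and 10 on the minus strand, and within the large group the strand changes between neighbours that all rose, such as TwdlK (minus) and TwdlJ (plus).

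Genes of other families within the 3 groups that hold several Tweedle genes were few and mostly too low to test. These groups hold 6 other annotated features, 5 of them in the table and 1 of them tested. This was goe, a metalloprotease-like gene whose span holds all 4 Tweedle genes of the X chromosome, with 33.2 ± 1.3 RPKM in esc and 27.9 ± 7.1 RPKM in OrgR (SD, n = 2 sets each; log2 change 0.26 ± 0.19, adjusted p = 0.29). The remaining 4 averaged under 0.3 RPKM in both genotypes. Among them was beat-VII, an immunoglobulin-domain gene of the beat family whose span holds Tb, with 0.253 ± 0.14 RPKM in esc and 0.145 ± 0.068 RPKM in OrgR. Among the genes that overlap a Tweedle gene standing alone, lectin-28C rose, as given with TwdlE. The long gene RYa-R, which encodes a neuropeptide receptor and spans TwdlT, averaged 0.0913 RPKM in esc and 0.0155 RPKM in OrgR.

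The esc sets were also compared with each other, as a description, because the labels do not say whether the 2 libraries of a set are separate pools. Both set 2 libraries lay above both set 1 libraries in 23 of 26 Tweedle genes (22 of the 23 tested), against 38.5% of all tested genes. The sets overlapped in TwdlR, TwdlQ and Twdlalpha, and no member had set 1 above. The summed level was 9050 RPKM in set 2 and 4833 RPKM in set 1, a ratio of 1.87. On the log2(RPKM + 1) scale, 8 of 23 tested members were at least 2-fold higher in set 2 without overlap, against 2.03% of all tested genes, and none was 2-fold lower, against 0.0948%. At 1.5-fold the count was 13 of 23, against 4.76%. The ratio between the libraries of a set was much smaller, with a median of 1.02 in esc set 1 and 1.08 in esc set 2 over the 22 members above 1 RPKM in every esc library, and at most 1.36 (TwdlO).

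The 8 members at least 2-fold higher in esc set 2 lie in a single stretch of the large group, interrupted only by TwdlO. From TwdlM to TwdlH, 9 consecutive members over 15.6 kb had esc set 2 over set 1 ratios of 1.80 to 3.77, with a median of 3.04. The highest was that of TwdlB, and TwdlO was the member of this run that did not reach 2-fold. In the 17 members elsewhere the ratio ran from 0.876 (Twdlalpha) to 1.83 (TwdlV), with a median of 1.27. The next genes in the same group, TwdlR, TwdlS, TwdlD, Tb and TwdlQ, had ratios of 1.13, 1.27, 1.78, 1.18 and 0.937. The limits of this run were drawn after the values were seen, so the contrast is a description. The summed epidermis markers were 502 RPKM in esc set 2 and 663 RPKM in esc set 1. Most of that sum was Fas3, and grh, ovo and vvl were lower in set 2 too. The summed central nervous system markers were 46.1 RPKM in set 2 and 70.5 RPKM in set 1. Trachea, hindgut and hemocyte markers were also lower in sum in set 2. Muscle markers went the other way, with 10750 RPKM in set 2 and 9829 RPKM in set 1. The part of these tissues in the set difference was not tested.

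The makeup of the family therefore differed between the esc sets. The 9 genes of the run summed to 4839 RPKM in set 2 and 1684 RPKM in set 1, which is 53.5% and 34.8% of the family sum. The other 17 summed to 4211 RPKM in set 2 and 3149 RPKM in set 1. TwdlM led in both set 2 libraries, with 28.7% and 27.5% of the sum, and TwdlF in both set 1 libraries, with 23.4% in each.

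**Figure D3:**
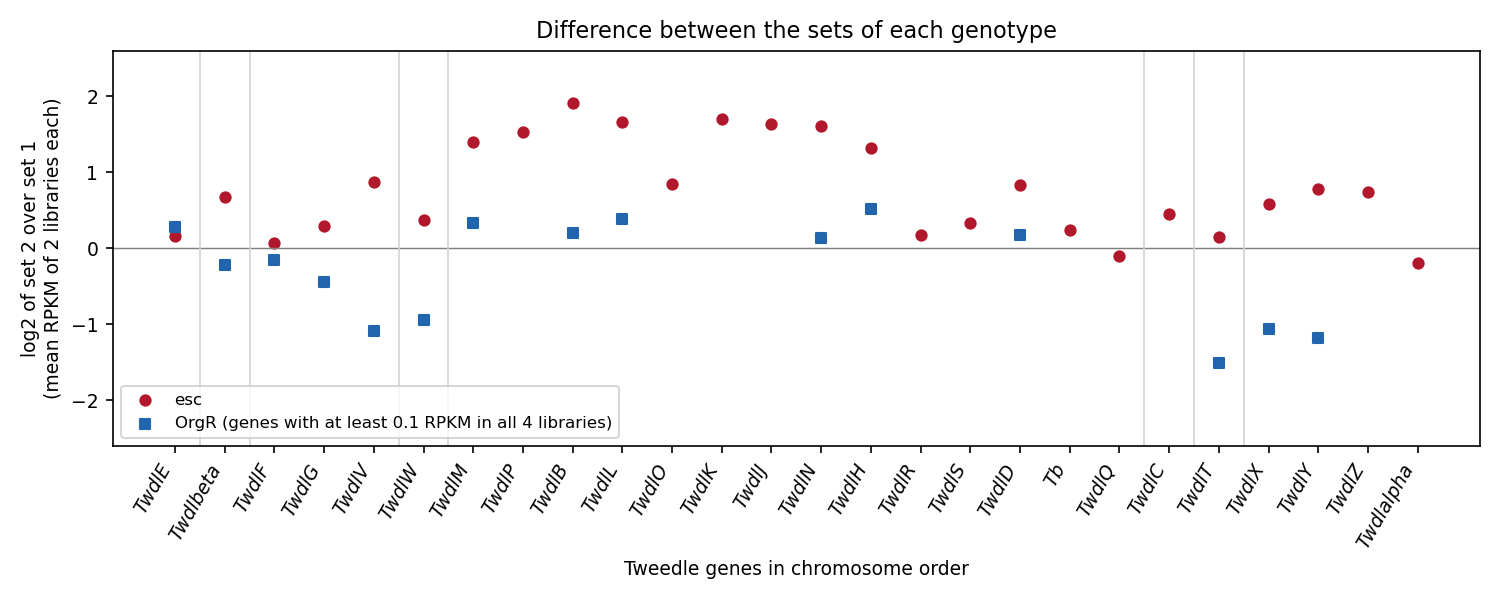
Log2 ratio of set 2 over set 1 (mean RPKM of 2 libraries each) for each Tweedle gene in chromosome order, red circles for esc and blue squares for OrgR, OrgR being drawn only for the 15 genes with at least 0.1 RPKM in all 4 OrgR libraries. Red points from TwdlM to TwdlH lie above all others except that of TwdlO (ratio 1.80), which lies just under TwdlV (1.83), and 5 blue squares (TwdlV, TwdlW, TwdlT, TwdlX, TwdlY) lie near or below -1.

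In OrgR the sets showed no common direction. Both set 2 libraries lay above both set 1 libraries in 8 of 26 Tweedle genes, among them TwdlM, TwdlB and TwdlL, against 30.9% of all tested genes. Set 1 lay above in 7, against 39.6% of all tested genes, and the sets overlapped in 11. The 26 genes summed to 38.3 RPKM in set 2 and 40.0 RPKM in set 1. Among the 15 members with at least 0.1 RPKM in every OrgR library, 5 had set 1 at 1.92 to 2.84 times set 2, and the other 10 had set 2 over set 1 ratios of 0.736 to 1.44. The 5 were TwdlT (2.94 and 2.996 RPKM in set 1, 0.937 and 1.16 RPKM in set 2), TwdlV, TwdlW, TwdlX and TwdlY. In the whole table, 5.73% of 10223 genes with an OrgR mean of at least 0.25 RPKM were at least 1.5 times higher in OrgR set 1 without overlap, and 3.51% were so in OrgR set 2, where no Tweedle gene was. TwdlW had 2.53 and 2.25 RPKM in OrgR set 1 and 1.18 and 1.31 RPKM in OrgR set 2, while its esc libraries had 325, 321, 435 and 400 RPKM. Set differences of this size are small beside the difference between genotypes in these 5 genes, whose lowest ratio of means was 54.6. These 5 genes were singled out after their values were seen.

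Other cuticle protein genes changed in the same direction as the Tweedle genes, though not all of them. Of 98 such genes in the table (Cpr, Lcp, Ccp84A and related names), 73 were tested, with a median log2 change of 2.89. Of the 73, 57 rose (78.1%, against 20.9% of all tested genes), 2 fell (against 31.6%) and 14 did not pass. The count of rises was 42 without OrgR set 1 and 38 without OrgR set 2. The largest rises were those of Cpr65Ea, with 1815 ± 888 RPKM in esc and 1.54 ± 0.067 RPKM in OrgR, and Lcp65Ag3, with 1625 ± 1282 RPKM in esc and 1.44 ± 0.55 RPKM in OrgR (SD, n = 2 sets each). Cpr49Ac fell to 2.23 ± 0.44 RPKM in esc, against 7.67 ± 0.72 RPKM in OrgR. Cpr72Ec, the other that fell (log2 change -0.60), did not pass under median-of-ratios scaling. The esc sets differed in this list too: 33 of 73 were at least 2-fold higher in esc set 2, against 2.03% of all tested genes. The list summed to 18110 RPKM in set 2 and 7184 RPKM in set 1.

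Osiris genes, which encode transmembrane proteins of cuticle-secreting epithelia, rose without this set difference. Of 24 in the table, 18 were tested, with a median log2 change of 2.29. Of the 18, 16 rose (88.9%, against 20.9% of all tested genes) and 2 did not pass. Their summed level was 11860 RPKM in esc set 2 and 15690 RPKM in esc set 1, the opposite order to the Tweedle genes. None of the 18 was 2-fold higher in esc set 2, against 2.03% of all tested genes. They were also far from silent in OrgR, at 1644 RPKM in set 2 and 2840 RPKM in set 1. Osi18 and Osi19 rose most, by 4.67 ± 0.61 and 4.41 ± 0.54 on the log2 scale (adjusted p = 0.00722 and 0.00637).

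**Figure D4:**
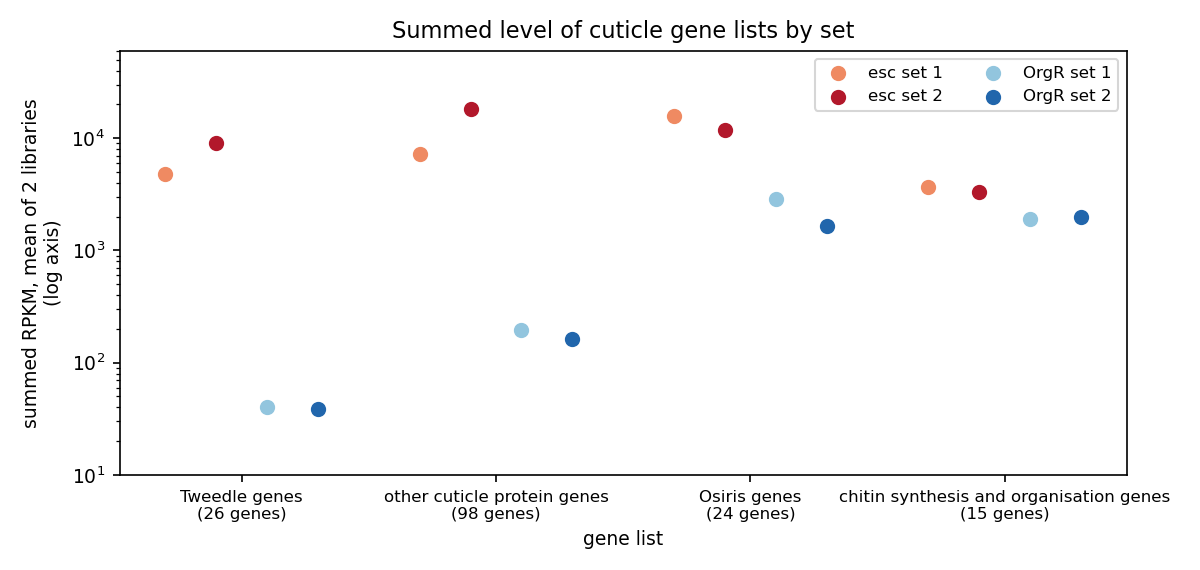
Summed RPKM (log axis, mean of 2 libraries) of 4 gene lists in each set, esc sets left of OrgR sets. Tweedle genes and other cuticle protein genes are higher in esc set 2 than in esc set 1, Osiris genes lower, and the gap between genotypes is widest for the Tweedle genes.

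Chitin, the polysaccharide scaffold of the cuticle, is made and arranged by enzymes whose genes were already expressed in OrgR. Of 15 genes for chitin synthesis and organisation, 10 rose (66.7%, against 20.9% of all tested genes), 2 fell (against 31.6%) and 3 did not pass. The median log2 change was 0.61. The count of rises was 6 without OrgR set 1, 5 without OrgR set 2 and 6 with set number as a block. Rises were led by obst-A, a chitin-binding matrix protein gene (764 ± 88 RPKM in esc, 164 ± 5.1 RPKM in OrgR), and Gfat1, which starts the pathway to the chitin precursor (190 ± 25 RPKM in esc, 47.4 ± 0.28 RPKM in OrgR). The genes that fell, the chitinase gene Cht5 (log2 change -0.70) and Gfat2 (-0.47), did not pass under median-of-ratios scaling. Of 9 tanning genes, 6 rose (66.7%, against 20.9% of all tested genes) and 3 did not pass, with a median log2 change of 1.08. Ddc and y, which act in the hardening and colouring of cuticle, led with log2 changes of 3.10 ± 0.51 and 2.53 ± 0.26 (adjusted p = 0.0116 and 0.00444). Ddc lost the call without OrgR set 2 (adjusted p = 0.0538).

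Among the regulators of epidermal and cuticle differentiation on the lists, ftz-f1 and Eip74EF rose. Of all tested genes, 20.9% rose and 31.6% fell. Among 7 epidermal and cuticle regulators none rose, 3 did not pass (grh, ovo and vvl) and 4 fell (D, Blimp-1, SoxN and ttk). Under median-of-ratios scaling 1 fell (D), and so it did without esc set 2 or without OrgR set 2. The median log2 change was -0.70. Among 10 tested ecdysone response regulators, 2 rose, 3 fell (Hr3, Eip75B and usp) and 5 did not pass. These counts were close to the shares of all tested genes. None of the 3 fell under median-of-ratios scaling. Of the 5, br had a log2 change of 1.14 (limma adjusted p = 0.0541) and rose under median-of-ratios scaling (adjusted p = 0.0437).

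The largest of those rises was in ftz-f1, a nuclear receptor gene known to be required for late embryonic cuticle. It had 41.9, 41.1, 38.9 and 40.2 RPKM in esc libraries, against 0.321, 0.496, 0.299 and 0.371 RPKM in OrgR libraries. The 2 genotypes were far apart and the esc sets nearly alike, unlike those of the TwdlM run (log2 change 4.92 ± 0.11, SE, adjusted p = 0.00026). Hr3, a nuclear receptor known to activate ftz-f1, had 149 ± 24 RPKM in esc and 242 ± 16 RPKM in OrgR (SD, n = 2 sets each; log2 change -0.70, adjusted p = 0.0175), and did not pass under median-of-ratios scaling (adjusted p = 0.0594).

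Markers of cuticle-bearing tissues were expressed in both genotypes. Of all tested genes, 20.9% rose and 31.6% fell. Of the epidermis markers, grh, ovo and vvl are also on the list of epidermal and cuticle regulators above. The 4 epidermis markers (grh, ovo, vvl, Fas3) summed to 496 to 665 RPKM in esc libraries and 604 to 895 RPKM in OrgR libraries, and none of the 4 passed, although all 4 had a negative log2 change. Without OrgR set 1 the log2 change of grh was -0.77. With only library OrgR 1-1 left out, grh fell (log2 change -0.57, limma adjusted p = 0.0422). In a limma fit of all 8 libraries that let those of the same set correlate, grh and vvl fell (adjusted p = 0.0213 and 0.0492). All 4 fell in a limma fit with set numbers crossed as a block (adjusted p between 0.0122 and 0.0207). That setting was chosen after seeing the data, and 4198 of 10547 tested genes fell in it. Of 4 trachea markers, Gasp, a chitin-binding protein gene, rose (1167 ± 222 RPKM in esc, 494 ± 56 RPKM in OrgR), btl fell, and trh and uif did not pass. The whole trachea list summed to 1097 to 1459 RPKM in esc libraries and 556 to 669 RPKM in OrgR libraries. Without Gasp the sums were 98.4 to 130.1 RPKM in esc libraries and 101 to 133 RPKM in OrgR libraries. Of 3 hindgut markers, byn and otp fell and drm did not pass, and of the falls in trachea and hindgut, that of otp alone passed under median-of-ratios scaling. All 3 muscle markers (Act57B, Mhc, Mlp60A) rose, with a summed level of 9767 to 10830 RPKM in esc libraries and 2825 to 3622 RPKM in OrgR libraries. None of 3 central nervous system markers passed, and of 2 tested hemocyte markers srp fell and Pxn did not pass. The part of these tissues in the rise of the Tweedle genes was not tested.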

How the data were processed

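The authors deposited 1 table of RPKM values, linear and unfiltered per the labels' descriptions, with a column for each of 8 unstranded paired-end libraries. Reads were placed on dm6, per the submitters' processing notes; aligner and counting program are not given in the sources used here. Whole reads could not be recovered from these RPKM values. RPKM is a share of a library, so large rises lower the values of all other genes. Members and lists were chosen with earlier results of these data known.

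Libraries of a set were averaged on the log2(RPKM + 1) scale, giving 2 set means per genotype. Genes averaging 0.5 RPKM or more over all libraries were tested with limma 3.58.1 in R 4.3.3 (lmFit, eBayes with trend, two-sided, Benjamini-Hochberg adjustment over all tested genes, threshold 0.05), which left 2 residual degrees of freedom. Nothing says that the sets are separate collections, so the p-values cover only set-to-set spread, possibly technical. The fit was checked on simulated data. Means ± SD are over 2 set means of RPKM, errors of log2 changes are standard errors, and folds are ratios of means. All 26 members matched the Ensembl annotation given. The labels do not say whether the set numbers mark a batch shared by the genotypes, and the fit has no block. Every member is accounted for, and values in every library are given by rule for the 5 highest in esc, the 3 largest and 3 smallest changes and the extremes of the set difference; of each list, the largest 2 rises and 2 falls were eligible for naming.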

Additional observations from a re-analysis of the deposited data

Results flagged for a closer look

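In 6 of 51 groups of 4 libraries, 1 library lay far from the other 3. The rule flags about 1 in 20 groups of 4 independent, normally distributed values. Libraries of a set may not be independent and some values stood at the floor, so that rate need not hold here. All 6 concern values under 1 RPKM. In OrgR 1-2, Twdlbeta had 0.620 RPKM, where the other OrgR libraries had 0.478 to 0.499 RPKM. TwdlH had 0.132 RPKM in OrgR 1-2, where the others had 0.331 to 0.342 RPKM, and TwdlP was listed at the floor of 0.001 RPKM there, where the others had 0.150 to 0.163 RPKM. TwdlG had 0.841 RPKM in OrgR 1-1, where the others had 0.475 to 0.530 RPKM. TwdlR had 0.025 RPKM in OrgR 2-2 and stood at the floor in the other 3 OrgR libraries. Twdlalpha had 0.252 RPKM in esc 1-2, where the other esc libraries had 0.182 to 0.192 RPKM.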

How the results depend on the processing

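All tested Tweedle genes kept a positive log2 change under each of 21 other settings of the fit, and 473 of 475 values under those settings stayed past the threshold; the 2 that did not were both of TwdlZ. The number of genes changed over the whole table, 5537, was 3594 under median-of-ratios scaling, where 74.4% of them rose, against 39.9% as deposited. It ran from 2087 to 5752 when a set or library was left out, with 3182 without esc set 1, 2306 without esc set 2, 2700 without OrgR set 1 and 2087 without OrgR set 2; a lone set is then assumed to vary like those of the other genotype. With the set number as a replicate block, 2467 genes changed and 23 of 23 Tweedle genes rose, against 14.9% of all tested genes. The same 11 of the 23 met the filter through esc alone. Deviations of same-numbered sets were negatively correlated over genes (r = -0.34), and with set numbers crossed, an alternative chosen after seeing the data, 6717 genes changed. The cause of these shifts in number was not tested. The count of members higher in esc set 2 was 13 at a limit of 1.5-fold, in place of 8 at 2-fold, against 4.76% and 2.03% of all tested genes. Values below about 0.1 RPKM are limited by depth.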

Other observations

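A list of apical matrix proteins had 12 tested genes, all with a ZP domain except the actin-binding gene f. Of these, 3 rose (25%, close to the 20.9% of all tested genes), none fell (against 31.6%) and 9 did not pass. The median log2 change was 0.24. The count of rises was 5 without esc set 2. The gene zye had the largest rise, with 6.32 ± 0.74 RPKM in esc and 0.0625 ± 0.033 RPKM in OrgR (SD, n = 2 sets each; log2 change 2.78 ± 0.13, limma adjusted p = 0.000858). Their summed level was 753 RPKM in esc set 2 and 1177 RPKM in esc set 1, the opposite order to the Tweedle genes.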
